A study of Mus musculus with 24 samples.

Results

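The 33 genes described here are markers of the oligodendrocyte lineage, taken by gene symbol from a list of named markers. All 33 were among the 24062 genes of the counts table and all were kept in the 16313 genes tested. They are 12 genes of structural and other mature myelin proteins, 4 of myelin lipid synthesis and metabolism, 6 of junctions, receptors, a channel and other mature cell functions, 5 lineage transcription factors, 3 genes of newly forming oligodendrocytes and 3 progenitor genes. They were measured by RNA-seq in 24 libraries of micro-dissected hippocampus from C57BL/6 mice. Mice were either of the wild type (WT) or without the interleukin-1 receptor IL-1R1 in neurons (KO), and were either controls or had been stressed by paired fighting, a form of social defeat. The KO mice gave 6 control and 5 stress libraries and the WT mice 7 control and 6 stress libraries. Age, sex and the driver line of the neuronal knockout were not given in the sources used here. The labels also do not say that each library came from its own mouse, so a p-value reflects the spread among samples, part of which may be technical.

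Oligodendrocytes wrap axons in myelin, a stack of membrane rich in cholesterol and galactolipids and held together by a small set of very abundant proteins. They arise from progenitors that carry the PDGF receptor alpha and the NG2 proteoglycan, pass through a short newly formed stage, and then switch on the myelin genes under SOX10, OLIG2 and MYRF. The hippocampus holds less myelin than the fimbria and the thalamus that lie beside it.

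Depth was 27367656 to 28700444 counts in the KO stress libraries, 25711872 to 30002237 in KO control, 26157103 to 35148198 in WT stress and 27533414 to 34741660 in WT control libraries. Il1r1, the gene removed in neurons, had a mean ± SD of 5.54 ± 1.77 counts scaled to library size (CPM) in KO stress (n = 5) and 5.56 ± 1.45 in WT stress (n = 6), and of 3.44 ± 1.21 in KO (n = 6) and 3.35 ± 1.31 CPM in WT controls (n = 7), so its level in whole tissue does not check the genotype labels. The ribosomal precursor Rn45s divided the libraries into 11 low-numbered ones (24238 to 50453 CPM) and 13 high-numbered ones (4107 to 8786 CPM). The low-numbered class held replicates 1 to 3 of WT control, 1 and 2 of WT stress, 1 to 4 of KO control and 1 and 2 of KO stress; the labels do not name the classes. The summed level of 15 thalamus and habenula markers was 388 to 786 CPM in the low-numbered libraries. It was 1069, 1127 and 922 CPM in WT stress 5, KO stress 3 and KO stress 5, and 160.0 to 321 CPM in the other 10 high-numbered libraries. The sum of 10 hippocampal pyramidal and granule cell markers was 337 to 547 CPM, 587, 503 and 559 CPM, and 733 to 1127 CPM in the same sets. Tcf7l2, 1 of the 15, is also made by newly forming oligodendrocytes. Slc17a6, a glutamate transporter of thalamic neurons, had 36.9 to 70.1 CPM, then 92.2, 82.9 and 64.6 CPM, then 7.57 to 20.5 CPM in these sets. WT stress 5, KO stress 3 and KO stress 5 are called the 3 libraries with thalamic transcripts, since their sums were the highest. The low-numbered libraries also carried such transcripts, at lower sums. KO stress 5 lay within their range for Slc17a6, Prkcd, Rora, Tnnt1, Zfhx3 and Gbx2, and WT stress 5 for Zfhx3. Medians of the members that rest on these 3 libraries are given with and without them. Values without the 3 are therefore not free of thalamic transcripts. Choroid plexus markers also varied: the summed level of 10 of them was 65.1 to 2586 CPM in WT control, 22.5 to 2161 in WT stress, 31.8 to 1884 in KO control and 802 to 2069.7 CPM in KO stress libraries.

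Each labelled library carried the oligodendrocyte markers, and the Schwann cell genes Pmp2 and Foxd3 reached no more than 0.214 and 0.312 CPM. Exons of Cnp, Ermn, Tspan2, Adamts4, Plekhh1, Nkx6-2, Bcas1 and Gpr17 overlap exons of another counted gene on the opposite strand. How counting used strand is not given in the sources used here, so reads of the 2 partners cannot be told apart in those stretches. In bulk tissue, fewer oligodendrocytes and less RNA per oligodendrocyte cannot be told apart.

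The members that differed between the library classes were Hapln2, Opalin, Enpp6 and Gpr17. Hapln2, Enpp6 and Gpr17 were lower and Opalin was higher in the high-numbered libraries. Gpr17 matched no promoter, and the promoters of the other 3 are shown. Each runs from 250 bases before to 50 bases after the start site (RefSeq, GRCm38.p6, the build known as mm10), and 24 of the 33 members matched a promoter. Capitals mark the SOX-type letters ACAAAG and ACAATG and the E-box letters CAGCTG, searched on both strands; these 3 strings do not overlap one another in the windows shown. The Hapln2 gene (ENSMUSG00000004894.10) spans bases 88021750 to 88027583 of chromosome 3 (minus strand), with its window at chr3:88027462-88027761. Opalin (ENSMUSG00000050121.9) spans bases 41061710 to 41077113 of chromosome 19 (minus strand), with its window at chr19:41077064-41077363. Enpp6 (ENSMUSG00000038173.15) spans bases 46986887 to 47096762 of chromosome 8 (plus strand), with its window at chr8:46986637-46986936.

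Hapln2: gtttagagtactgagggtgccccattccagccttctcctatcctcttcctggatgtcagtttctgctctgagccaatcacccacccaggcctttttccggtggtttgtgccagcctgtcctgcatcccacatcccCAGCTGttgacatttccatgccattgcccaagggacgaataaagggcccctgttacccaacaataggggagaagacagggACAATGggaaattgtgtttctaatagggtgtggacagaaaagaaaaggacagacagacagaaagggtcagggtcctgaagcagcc
Opalin: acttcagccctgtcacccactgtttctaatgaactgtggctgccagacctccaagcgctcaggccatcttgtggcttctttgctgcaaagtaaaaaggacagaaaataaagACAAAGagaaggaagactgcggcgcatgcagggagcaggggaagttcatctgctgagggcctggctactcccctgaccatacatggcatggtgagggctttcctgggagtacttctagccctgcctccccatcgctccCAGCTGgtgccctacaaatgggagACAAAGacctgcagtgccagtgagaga
Enpp6: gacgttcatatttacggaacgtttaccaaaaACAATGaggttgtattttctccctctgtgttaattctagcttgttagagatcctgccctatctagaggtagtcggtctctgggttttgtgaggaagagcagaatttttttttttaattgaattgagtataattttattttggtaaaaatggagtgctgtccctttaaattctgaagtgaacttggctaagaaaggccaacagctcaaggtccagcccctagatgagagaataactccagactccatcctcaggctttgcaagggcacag

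The Hapln2 window holds ACAATG 35 bases and CAGCTG 115 bases before the RefSeq start site. The gene span of Hapln2 given above begins upstream of that start, so its ACAATG lies within the span. The Opalin window holds ACAAAG 139 bases before the start and again 24 bases after it. Its CAGCTG begins 1 base before the start site and runs across it. The Enpp6 window holds ACAATG 219 bases before the start. Over all 32851 promoters of this length, ACAAAG was present in 18.7%, ACAATG in 12.6% and CAGCTG in 16.3%. Among the 30 promoter windows of the members, they were present in 9, 5 and 3. These are matches of letters and not measured binding sites.

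Per length of exon, the structural myelin genes led. Mean levels over the 24 libraries, in CPM per kilobase of exon, were 467 ± 112 (SD, n = 24) for Mbp, which encodes the basic protein that compacts the membrane, 147 ± 33.7 for Cnp, an enzyme that keeps cytoplasm open within the sheath, and 119 ± 30.7 for Cldn11, the claudin of the myelin tight junctions. Trf, the iron carrier transferrin, had 112 ± 34.6 and Olig1, a lineage transcription factor, 95.1 ± 15.2 CPM per kilobase. In this order the SD ranges of neighbouring genes from Cnp to Olig1 overlap. At the other end were Plekhh1 (2.42 ± 1.07), Aspa (2.28 ± 0.554), which breaks down N-acetylaspartate, Cspg4 (2.17 ± 0.194), the NG2 proteoglycan, Vcan (0.818 ± 0.134), the matrix proteoglycan versican, and Enpp6 (0.418 ± 0.158 CPM per kilobase), a choline phosphodiesterase of newly forming oligodendrocytes. The SD ranges of Plekhh1, Aspa and Cspg4 overlap in the same way.

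Most members were high or low in the same libraries, and the progenitor genes Cspg4 and Pdgfra varied least. Between the lowest and the highest library, CPM spanned 5.58-fold for Adamts4, a matrix protease of mature cells, 4.44-fold for Hapln2, the link protein of nodal matrix, 3.99-fold for Mobp, a basic protein of compact myelin, and 2.97-fold for Mbp. The progenitor genes Pdgfra, the PDGF receptor, and Cspg4 spanned only 1.496-fold and 1.41-fold, while Vcan spanned 1.79-fold, close to the transcription factors Olig1 (1.79-fold), Olig2 (1.75-fold) and Sox10 (1.82-fold). Of the 33 members, 27 were highest in KO stress 3, and all 33 were above their own median there. WT control 5 held the lowest value of 16 members and WT stress 6 that of 13. In KO control 6, by contrast, 0 of the 33 members were above their own median.

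**Figure D1:**
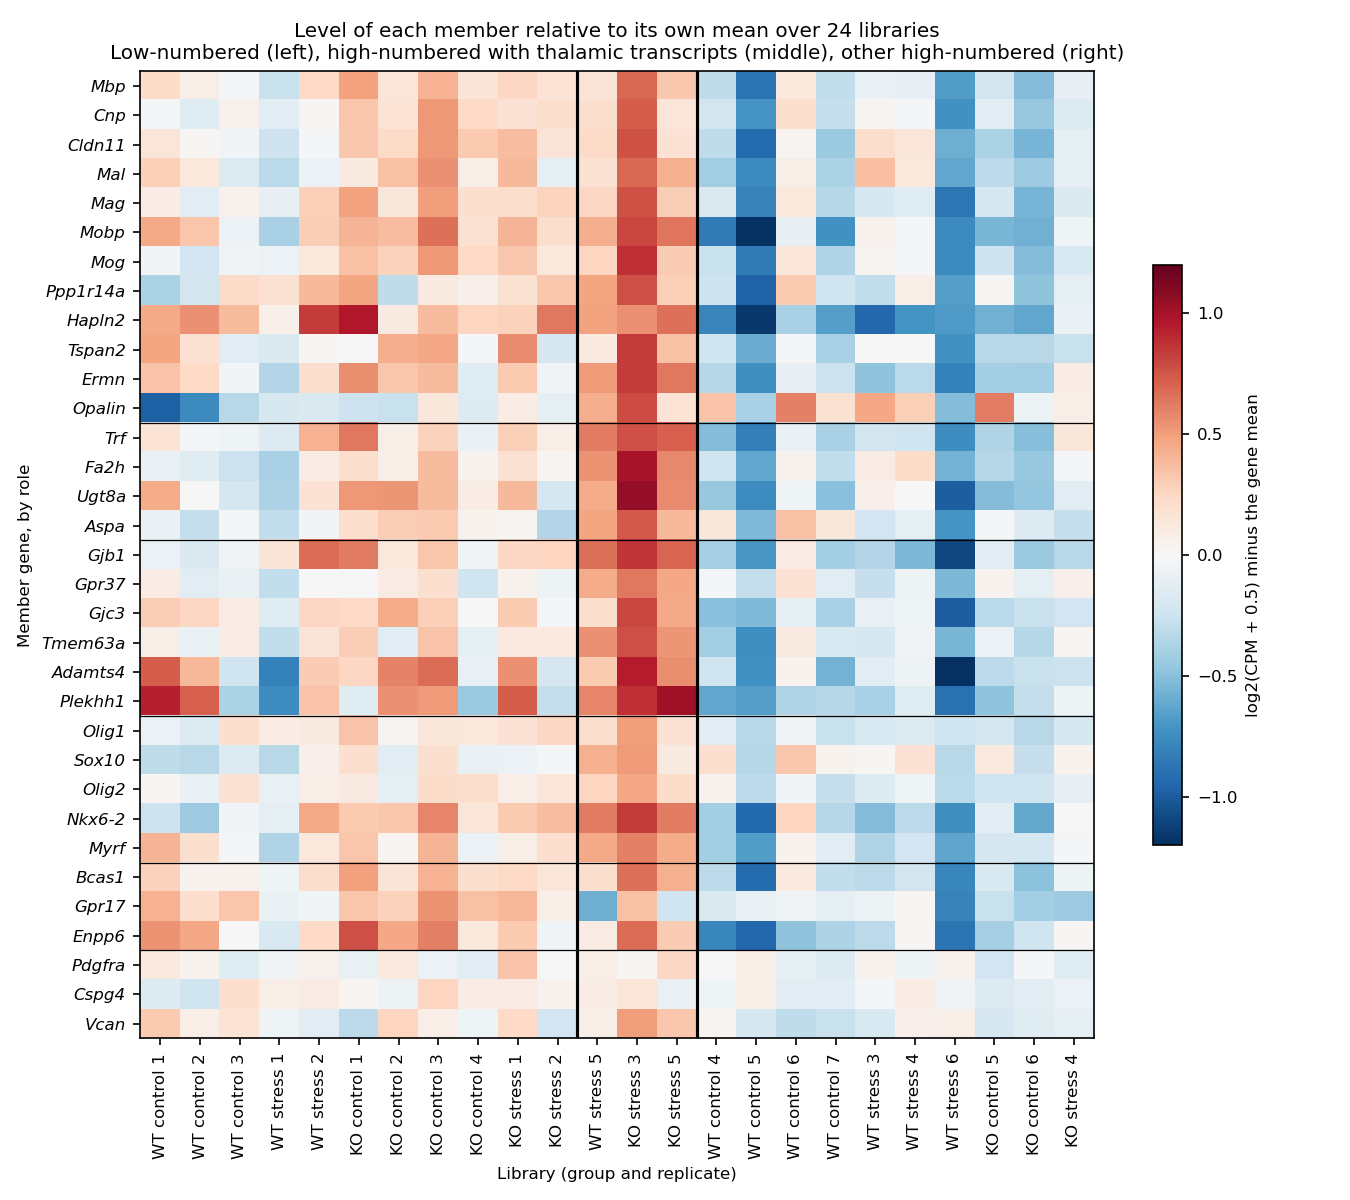
Colours give log2(CPM + 0.5) of each member minus its mean over the 24 libraries, with members in rows by role and libraries in columns by class. KO stress 3 is the reddest column, with 27 of 33 members at their highest, and the rows of Pdgfra and Cspg4 near the bottom vary least.

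The library mean of the 30 members other than progenitor genes, as log2(CPM + 0.5) relative to each gene's mean, ran from −0.72 in WT stress 6 to 0.74 in KO stress 3. The mean of the 3 progenitor genes ran from −0.20 to 0.23 on the same scale. The 3 libraries with the highest thalamic sums were all above 0 for the 30 members, and each of the other 10 high-numbered libraries except WT control 6 was below 0. Whether adjoining tissue contributes to these values was not tested.

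**Figure D2:**
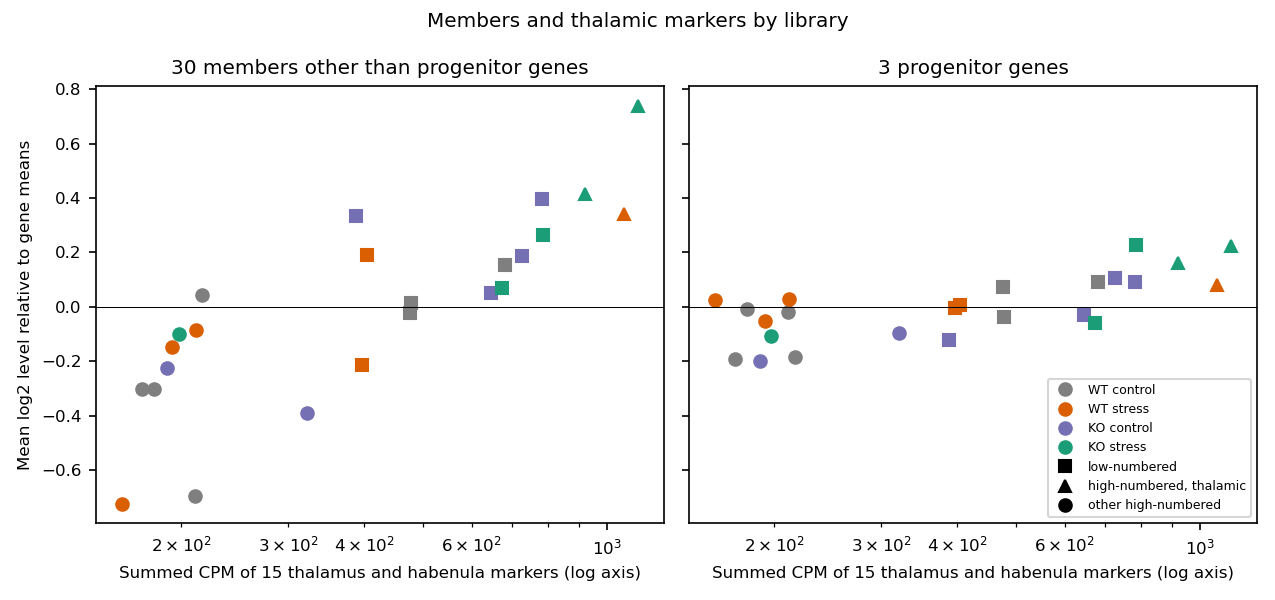
Each symbol is 1 library: the horizontal axis is the summed CPM of 15 thalamus and habenula markers on a log axis and the vertical axis the mean log2 level relative to gene means, for 30 members (left) and for the 3 progenitor genes (right). The 30 members reach 0.74 in KO stress 3, the library with the highest sum, while the progenitor genes stay between −0.20 and 0.23.

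The first comparison asked whether stress changed these genes in WT mice, and no member passed the test. With the quasi-likelihood test of edgeR and Benjamini-Hochberg adjustment, 22 of 16313 genes (0.135%) were called and 0 of the 33 members; 0 members had an unadjusted p under 0.05 (4.41% of all genes), and DESeq2 called 0 members. The median log2 fold change of the members was 0.058, against −0.0013 over all genes tested, with 22 of 33 above 0 and a range from −0.32 to 0.28. Without the 3 libraries with thalamic transcripts the median was −0.018, with 14 of 33 above 0, and it was −0.019 without WT control 5 and −0.019 without WT stress 5. Mbp had a lowest, median and highest level of 2091, 3812 and 4473 CPM in WT controls and 2418, 3616 and 4521 CPM in WT stress. These ranges overlap almost wholly, and the log2 fold change was 0.024 ± 0.18 (SE; 95% interval −0.35 to 0.39; adjusted p = 1.0).

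By role, 10 of 12 structural genes, 3 of 4 lipid and metabolic genes, 3 of 6 junction, receptor and other mature genes, 4 of 5 transcription factors, 0 of 3 newly forming genes and 2 of 3 progenitor genes had a log2 fold change above 0 in WT mice. The smallest p belonged to Gpr17, a receptor of newly forming oligodendrocytes that acts as a brake on maturation. Gpr17 had a lowest, median and highest level of 52.3, 57.3 and 79.2 CPM in WT controls and 33.7, 56.2 and 59.8 CPM in WT stress. The 2 ranges overlap between 52.3 and 59.8 CPM, WT stress 5 and 6 lie below all controls, and the log2 fold change was −0.32 ± 0.17 (adjusted p = 1.0). Cspg4 followed with 21.8, 23.5 and 29.6 CPM in controls and 25.02, 27.4 and 27.6 CPM in WT stress, a log2 fold change of 0.11 ± 0.076 (adjusted p = 1.0). Fa2h, the enzyme that hydroxylates the fatty acids of myelin galactolipids, had 34.3, 45.02 and 54.7 CPM in controls and 35.8, 56.8 and 77.8 CPM in WT stress, a log2 fold change of 0.27 ± 0.18 (adjusted p = 1.0). The ranges of both genes overlap between the groups.

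The same question in KO mice also gave no call among the members. Over all genes 1 of 16313 (0.00613%) was called and 0 of 33 members, 1 member had an unadjusted p under 0.05 (3.97% of all genes), and DESeq2 called 0 members. Here 31 of 33 members were above 0, with a median log2 fold change of 0.20 against 0.0052 over all genes. Without KO stress 3, the library in which 27 members were highest, the median was 0.077, and without the 3 libraries with thalamic transcripts it was 0.010, with 18 of 33 above 0. The 15 thalamus and habenula markers were all above 0 in the same comparison, with a median log2 fold change of 0.56, and so were the 10 choroid plexus markers, with a median of 0.88. Without those 3 libraries these medians were 0.12 and 0.77. The part of either tissue in the members' values was not tested.

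By role in KO mice, all 12 structural genes were above 0 (median log2 fold change 0.20), as were all 4 lipid and metabolic genes (0.32), all 6 junction, receptor and other mature genes (0.27), all 5 transcription factors (0.17) and all 3 progenitor genes (0.17), but 1 of 3 newly forming genes (−0.0083). The highest value was that of Plekhh1, which had 10.5, 12.8 and 22.1 CPM as the lowest, median and highest level in KO controls and 24.96, 12.1, 27.8, 14.3 and 30.7 CPM in KO stress replicates 1 to 5, a log2 fold change of 0.54 ± 0.35 (adjusted p = 0.988). Replicates 1, 3 and 5 of KO stress lie above all KO controls for this gene. It was named for its value and not by the rule for named genes.

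Pdgfra had 27.1, 30.2 and 34.8 CPM as the lowest, median and highest level in KO controls and 40.6, 31.9, 32.5, 28.8 and 37.97 CPM in KO stress replicates 1 to 5. Replicates 1 and 5 lie above all KO controls and the other 3 within their range, and the log2 fold change was 0.17 ± 0.081 (adjusted p = 0.988). Fa2h had 38.7, 55.6 and 69.4 CPM in KO controls and 60.7, 54.1, 106, 52.3 and 79.7 CPM in KO stress. Replicates 3 and 5, both with thalamic transcripts, lie above all KO controls, and the log2 fold change was 0.39 ± 0.20 (adjusted p = 0.988). Gpr37, a receptor that limits the differentiation of oligodendrocytes, had 60.1, 72.1 and 81.4 CPM in KO controls and 73.3, 68.01, 111, 74.4 and 98.4 CPM in KO stress, with a log2 fold change of 0.25 ± 0.14 (adjusted p = 0.988). The same 2 replicates of Gpr37 lie above all KO controls. Without KO stress 3 the log2 fold change of Fa2h was 0.20 and that of Gpr37 0.14, and without KO stress 1 that of Pdgfra was 0.10.

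Mbp had 2672, 4266 and 5367 CPM in KO controls and 4569.8, 4314, 6201, 3588 and 4808 CPM in KO stress, so that 1 of 5 stress libraries, KO stress 3, lies above the controls. Its log2 fold change was 0.17 ± 0.19 (95% interval −0.23 to 0.58; adjusted p = 0.988), and it was 0.053 without KO stress 3, 0.11 without KO control 5 and 0.070 without KO control 6. The transcription factors had log2 fold changes of 0.17 ± 0.12 for Olig1, 0.17 ± 0.12 for Olig2, 0.12 ± 0.15 for Sox10, 0.31 ± 0.24 for Nkx6-2 and 0.21 ± 0.19 for Myrf, the factor that starts myelin gene expression. The newly forming genes Bcas1, Gpr17 and Enpp6 had 0.17 ± 0.20, −0.11 ± 0.19 and −0.0083 ± 0.32. The same 8 genes in WT mice had 0.086 ± 0.11, 0.019 ± 0.11, 0.085 ± 0.13, 0.26 ± 0.23, −0.075 ± 0.18, −0.021 ± 0.19, −0.32 ± 0.17 and −0.0077 ± 0.29 in that order. None passed the test in either genotype.

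**Figure D3:**
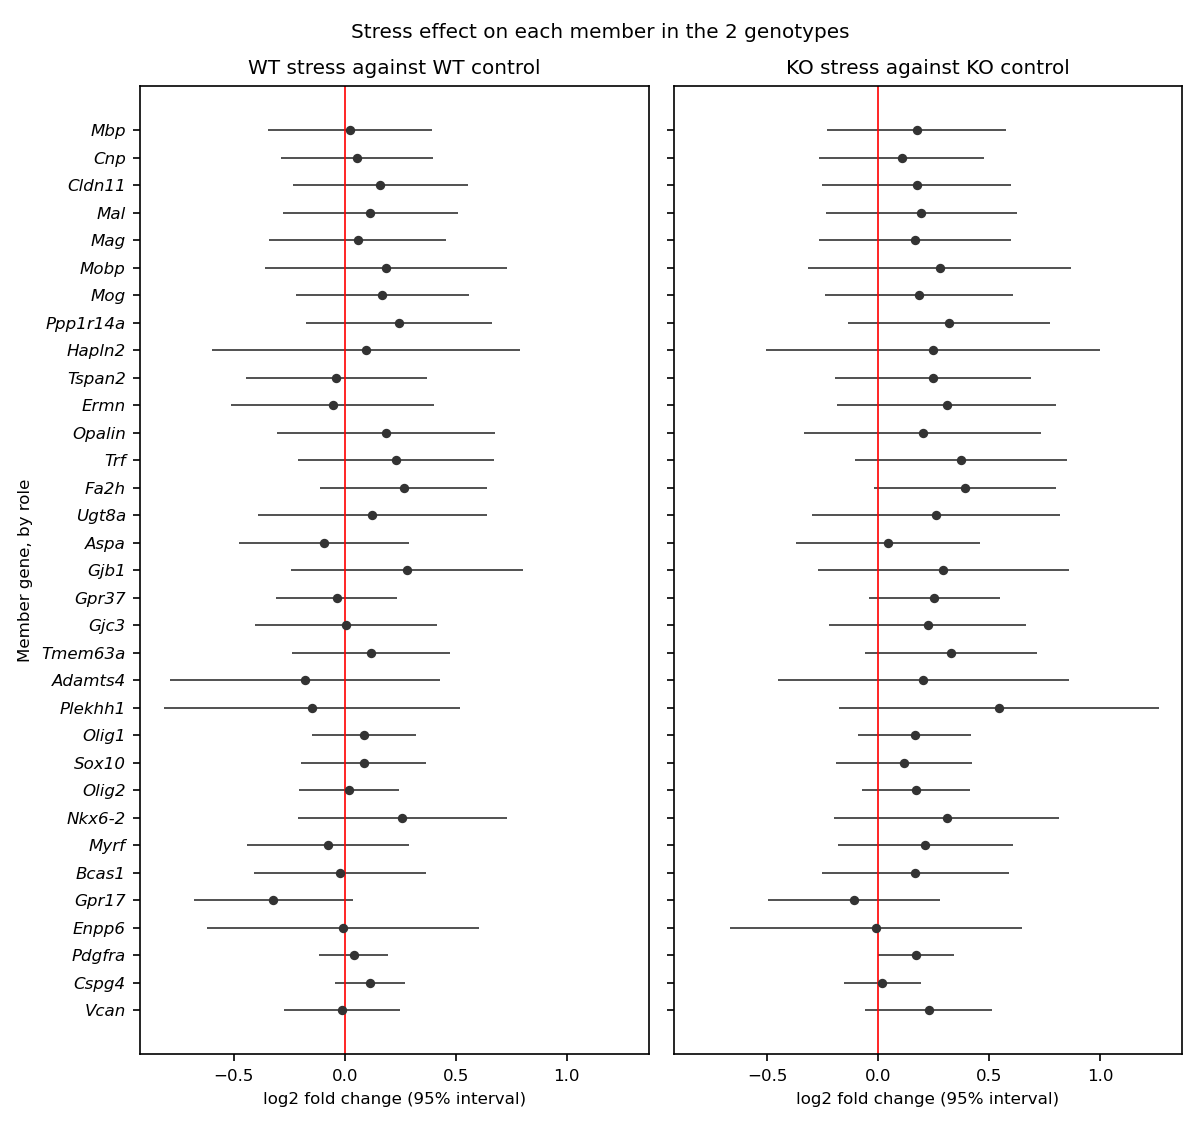
Points give the log2 fold change of stress against control for each member in WT mice (left) and KO mice (right), and bars its 95% interval. In WT mice every interval covers 0; in KO mice that of Pdgfra runs from 0.0014 to 0.34, and the other 32 cover 0.

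**Figure D4:**
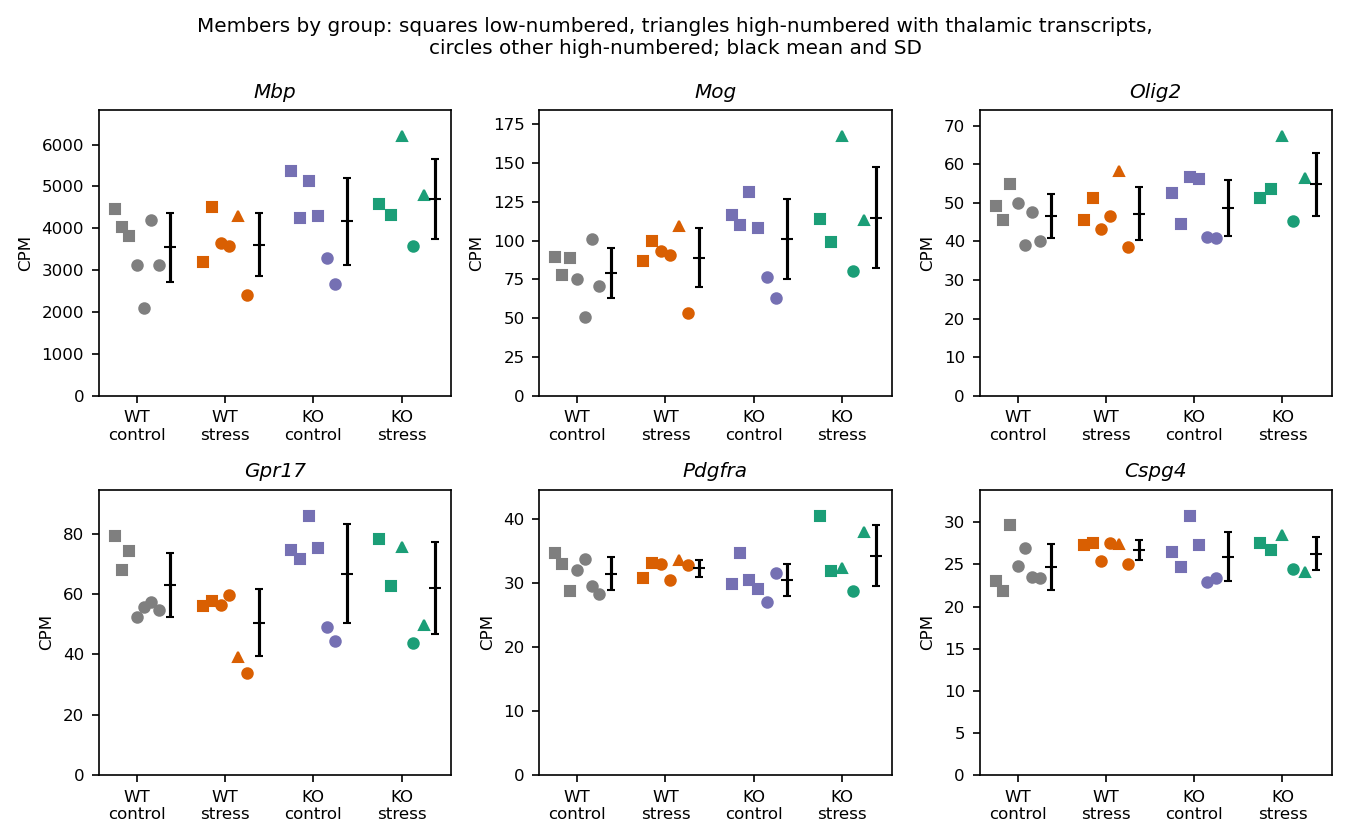
Each symbol is the CPM of 1 library for 6 members by group, with the mean and SD in black and the library class shown by the shape. The groups overlap for all 6 genes, and KO stress 3 is the highest triangle for Mbp (6201 CPM) and Mog (167 CPM).

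Whether the stress effect differed between the genotypes was tested as an interaction, and 0 of 16313 genes (0%) and 0 members were called by edgeR, with 0 members at an unadjusted p under 0.05 (2.35% of all genes); DESeq2 called 0 members. The stress effect in KO less that in WT mice, on the log2 scale, was 0.29 ± 0.19 for Gpr37, 0.69 ± 0.47 for Plekhh1 and 0.24 ± 0.19 for Vcan, the 3 members with the smallest p (adjusted p = 1.0 for each). The median over the members was 0.14, with 0.011 without the 3 libraries with thalamic transcripts and −0.0085 without KO stress 3 alone. The 10 choroid plexus markers, all above 0, had a median of 1.39 in this test, and their part was not tested. Averaged over the genotypes, stress gave calls for 35 of 16313 genes (0.215%) and for 0 members by edgeR or DESeq2, with 1 member at an unadjusted p under 0.05 (6.17% of all genes). That was Fa2h, with 0.33 ± 0.13 (adjusted p = 0.689), followed by Trf with 0.30 ± 0.16 (adjusted p = 0.836) and Pdgfra with 0.11 ± 0.055 (adjusted p = 0.836). The median of the members was 0.12 with all libraries and −0.0049 without those 3.

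Other genes of the pathway were taken from 5 lists: 29 further mature oligodendrocyte genes, 21 cholesterol and lipid synthesis genes, 18 further progenitor and newly forming genes, 24 ligands and receptors (22 tested) and 12 genes of the node and paranode. In both genotypes 0 genes of these lists were called with stress. The smallest p among them in WT mice was that of Tnr, the matrix protein tenascin-R, with a log2 fold change of −0.57 ± 0.21 (adjusted p = 0.819). Among the ligands and receptors in KO mice, Rtn4, which encodes the myelin inhibitor Nogo, had −0.16 ± 0.067 and Lingo1, a part of its receptor, −0.30 ± 0.14 (adjusted p = 0.988 for both).

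The next comparison set KO against WT mice. In controls 0 of 16313 genes (0%) and 0 members were called by edgeR, with 0 members at an unadjusted p under 0.05 (3.02% of all genes), and 30 of 33 members were above 0 with a median log2 fold change of 0.19, against −0.0034 over all genes. Nkx6-2, a homeobox factor of myelinating cells, had 11.8, 18.04 and 27.6 CPM as the lowest, median and highest level in WT controls and 14.9, 27.1 and 34.8 CPM in KO controls, a log2 fold change of 0.43 ± 0.22 (adjusted p = 1.0). Mog, a protein of the outer myelin surface, had 50.7, 77.6 and 101 CPM and 63.2, 109 and 131 CPM, a log2 fold change of 0.35 ± 0.19, and Cnp had 319, 472 and 593 CPM and 378, 597 and 745 CPM, a log2 fold change of 0.28 ± 0.16 (adjusted p = 1.0 for both). For each of the 3 genes the ranges overlap, with higher KO medians. In the high-numbered libraries alone, 4 WT and 2 KO, the same 3 log2 fold changes were −0.061, −0.091 and −0.072. The median of the members was −0.038 in these libraries and 0.18 in the low-numbered ones. In a fit without the 3 libraries with thalamic transcripts, all of them stress libraries, the 15 thalamus and habenula markers were all above 0 (median 0.61). The 10 hippocampal markers were all below 0 (median −0.52), and 3 of 10 choroid plexus markers were above 0 (median −0.087). Their part was not tested.

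Under stress the KO and WT libraries also gave 0 calls among 16313 genes (0%) and among the members by edgeR, with 4 members at an unadjusted p under 0.05, while 4.71% of all genes had such a p. Gpr37 had 48.9, 63.5 and 97.2 CPM in WT stress and the 5 KO stress values given above, a log2 fold change of 0.34 ± 0.14. Ermn, a cytoskeletal protein of the mature sheath, had 25.3, 35.4 and 64.2 CPM in WT stress and 55.8, 43.7, 80.7, 47.8 and 69.98 CPM in KO stress, a log2 fold change of 0.55 ± 0.24. Bcas1, a marker of cells that start to myelinate, had 143, 225 and 284 CPM and 291, 273, 391, 236 and 332 CPM, a log2 fold change of 0.43 ± 0.20 (adjusted p = 0.798 for all 3). Both groups overlap for each of these genes. Over the 33 members the median was 0.36, with 32 above 0. Without the 3 libraries with thalamic transcripts it was 0.22, again with 32 above 0, and 0 members had an unadjusted p under 0.05 (3.92% of all genes). Gpr37, Ermn and Bcas1 then had 0.24 ± 0.12, 0.45 ± 0.25 and 0.31 ± 0.24. Without KO stress 3 alone the median was 0.23. The 15 thalamus and habenula markers and the 10 choroid plexus markers were all above 0 in this comparison, with medians of 0.94 and 1.34, and of 1.002 and 2.42 without the 3 libraries; their part was not tested.

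Averaged over stress, 33 of 33 members were above 0 in KO against WT mice, with a median log2 fold change of 0.30 against −0.0029 over all genes, and 0 of 16313 genes (0%) were called by edgeR; DESeq2 called 0 members in each of the 3 genotype comparisons. An unadjusted p under 0.05 was reached by 13 members and by 5.79% of all genes, and Nkx6-2 (0.45 ± 0.17), Mog (0.36 ± 0.14) and Cnp (0.30 ± 0.12) had the smallest (adjusted p = 0.773 for all 3). The 3 progenitor genes had a median of 0.023, whereas the 12 structural genes had 0.31. In the same contrast the 15 thalamus and habenula markers were all above 0 with a median of 0.80, as were the 10 choroid plexus markers with a median of 0.61, and the 10 hippocampal markers were all below 0 with a median of −0.44. Median thalamic sums were 786 CPM in KO stress and 304 in WT stress, and 517 in KO and 216 CPM in WT controls, and 6 of 11 KO but 5 of 13 WT libraries were low-numbered. The part of these differences in the members' values was not tested. Without the 3 libraries with thalamic transcripts the median of the members was 0.24, with 32 of 33 above 0 and 1 at an unadjusted p under 0.05. Within the low-numbered libraries the median was 0.16 and within the high-numbered ones 0.21.

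The library classes differed for 4 members with all 24 libraries. Of 16313 genes, 3385 were called (20.8%), 1559 lower in the high-numbered class (9.56%) and 1826 higher (11.2%). Among the members 3 were lower and 1 was higher, shares no larger than those over all genes. The classes are no groups of the study, and they part the samples by Rn45s and by replicate number.

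Hapln2 had a lowest, median and highest level of 48.3, 60.3 and 90.6 CPM in the 11 low-numbered libraries and 20.4, 29.9 and 73.6 CPM in the 13 high-numbered ones. It was lower, with a log2 fold change of −0.85 ± 0.18 (edgeR adjusted p = 0.002399), with overlap through the 3 libraries with thalamic transcripts, at 64.9, 67.8 and 73.6 CPM. Without these, the high-numbered libraries ran from 20.4 to 43.8 CPM and all lay below the low-numbered ones, where the lowest was 48.3 CPM. Such a gap between the classes was found for 5.36% of all genes without these 3 libraries. With all 24, the values did not overlap for 0.699% of all genes and for 0 of the 33 members.

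Gpr17 had 55.99, 74.3 and 86.03 CPM in the low-numbered and 33.7, 52.3 and 75.5 CPM in the high-numbered libraries, a log2 fold change of −0.43 ± 0.097 (adjusted p = 0.00248). Here WT stress 5 was among the low values, at 39.1 CPM, while KO stress 3 was the highest of its class. Enpp6 had 2.16, 3.25 and 4.68 CPM and 1.07, 1.93 and 4.296 CPM, a log2 fold change of −0.64 ± 0.19 (adjusted p = 0.0196). Opalin, a glycoprotein of central myelin, moved the other way, with 13.7, 24.1 and 30.4 CPM and 19.1, 33.7 and 47.9 CPM, a log2 fold change of 0.56 ± 0.14 (adjusted p = 0.00646). The classes overlap for all 3 genes. All 4 calls held whichever single library was left out, but none held in a fit with the replicate number as a block, where only numbers 3 and 4 hold both classes. With that block Hapln2 had −0.92 (adjusted p = 0.376), Gpr17 −0.21 (adjusted p = 0.633), Opalin 0.60 (adjusted p = 0.446) and Enpp6 −0.14 (adjusted p = 0.9198). The number of members called was 7, 10 and 7 without KO stress 2, KO stress 3 and WT stress 5.

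Without WT stress 5, KO stress 3 and KO stress 5, 24 of 33 members were called, 23 lower and 1 higher in the high-numbered class, where 31.1% of 16592 genes were called (16.2% lower and 14.9% higher). These 3 libraries were chosen by expression, and 32, 33 and 31 of the 33 members were above their own median there. Leaving them out of the high-numbered class lowers its level, so the larger count is no independent support for a class difference. The median log2 fold change of the members was −0.40, compared with −0.23 with all libraries. In the same comparison without those 3, all 15 thalamus and habenula markers were called lower, with a median log2 fold change of −1.70. The 3 libraries had been picked by the sum of these same 15 markers, so this count is no test. Of 10 hippocampal pyramidal and granule cell markers 9 were called higher (median 1.31), and of 10 microglia markers 7 (median 0.36). Of 10 astrocyte markers 4 were called higher and 3 lower. The part of these differences in the members' values was not tested. By role, 9 structural genes were lower and Opalin higher of 12, 2 of 4 lipid genes, 5 of 6 junction, receptor and other mature genes, 4 of 5 transcription factors and 3 of 3 newly forming genes were lower, and 0 of 3 progenitor genes were called. Mobp was lower, with a log2 fold change of −0.69 ± 0.16 (edgeR adjusted p = 0.00238), Gjb1, a connexin of oligodendrocyte gap junctions, had −0.60 ± 0.13 (adjusted p = 0.00143), and Mbp had −0.43 ± 0.11 (adjusted p = 0.00516). Olig1 had −0.31 ± 0.056 and Myrf −0.37 ± 0.092, both called lower, whereas Sox10, which acts upstream of Myrf, had 0.12 ± 0.093 (adjusted p = 0.348). Pdgfra, Cspg4 and Vcan had −0.087 ± 0.060, −0.11 ± 0.060 and −0.19 ± 0.088 and did not pass the test. The other 15 members called lower were Gjc3, Bcas1, Ermn, Trf, Mag, Olig2, Tspan2, Ugt8a, Plekhh1, Nkx6-2, Mog, Cldn11, Cnp, Adamts4 and Tmem63a, besides Hapln2, Gpr17 and Enpp6, with log2 fold changes from −0.67 (Plekhh1) to −0.23 (Olig2). The other members without a call were Mal, Ppp1r14a, Fa2h, Aspa and Gpr37.

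**Figure D5:**
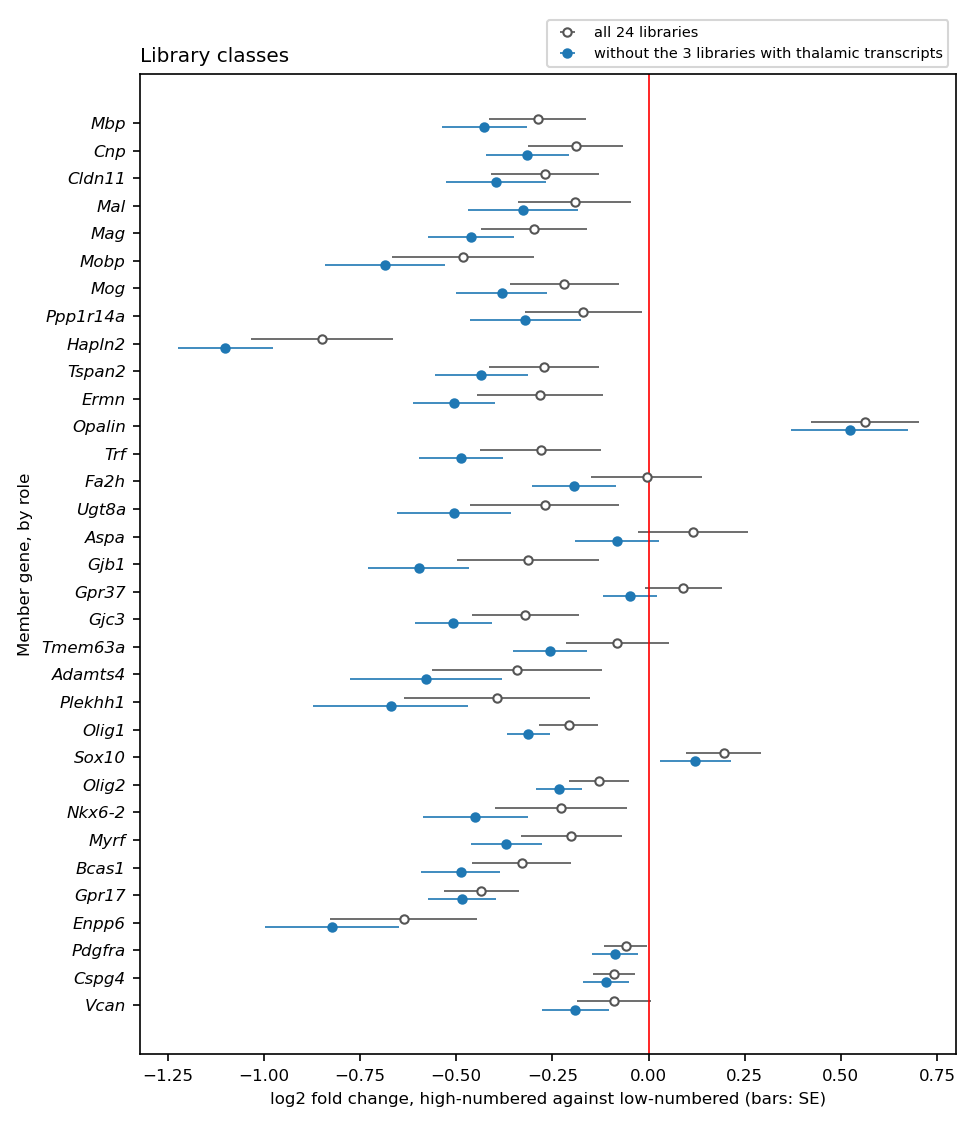
Points give the log2 fold change of each member in high-numbered against low-numbered libraries with its SE, open for all 24 libraries and filled without the 3 libraries with thalamic transcripts. Filled points lie to the left of the open ones for all members shown, Hapln2 is the lowest at −1.10 and Opalin the highest at 0.52. The 3 libraries left out are high-numbered and were themselves high for most members.

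Of 102 tested genes on the 5 pathway lists, 27 (26.5%) were called between the classes, where 20.8% of all genes were. Of these, 20 were lower (9.56% of all genes) and 7 higher (11.2%), and nothing particular to the lists was tested. Of the 29 further mature genes 5 were lower, among them Klk6, a protease of mature oligodendrocytes (−1.99 ± 0.52, adjusted p = 0.01003), Anln, the septin partner anillin (−0.62 ± 0.17), Cdk18 (−0.50 ± 0.12) and Ndrg1 (−0.29 ± 0.081). Of the 21 lipid genes 3 were lower, among them the cholesterol synthesis enzymes Fdft1 (−0.21 ± 0.052) and Cyp51 (−0.21 ± 0.067). Of 18 progenitor and newly forming genes 3 were higher, with Rlbp1 at 0.41 ± 0.082, and 3 lower, with Neu4 at −0.24 ± 0.067 and Megf11 at −0.26 ± 0.080. Of 22 ligands and receptors 3 were higher and 6 lower: Fgfr1 (0.33 ± 0.053) and Chrm1 (0.51 ± 0.13) were higher, and Nrg1 (−0.80 ± 0.22) and Igf1r (−0.32 ± 0.091) lower. Of 12 node and paranode genes, the axonal partner Cntnap1 was higher (0.23 ± 0.046) and 3 were lower, the potassium channel Kcna2 (−0.43 ± 0.091), Sptbn4 (−0.18 ± 0.046) and Cntn2 (−0.35 ± 0.11). These values are log2 fold changes with their SE. Without the 3 libraries with thalamic transcripts 46 of the 102 were called (31.1% of all genes were), 39 lower and 7 higher, among them 17 of the 29 further mature and 8 of the 21 lipid genes, all lower. Here too the libraries left out were chosen by expression and came from the high-numbered class only.

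The stress effect was also compared between the classes, as its value in high-numbered minus low-numbered libraries. Over all genes 7 of 16313 (0.0429%) were called by edgeR and 0 members (0 by DESeq2), while 14 members (17.0% of all genes) had an unadjusted p under 0.05. The median over the members was 0.47 against 0.030 over all genes, and 0.15 without the 3 libraries with thalamic transcripts, all 3 of which are high-numbered stress libraries. In the same contrast the 15 thalamus and habenula markers had a median of 1.73 and the 10 choroid plexus markers one of 1.90, all above 0, and without those 3 libraries the medians were 0.10 and 1.42; their part was not tested. Mobp differed by 1.03 ± 0.29 (adjusted p = 0.172), Enpp6 by 1.04 ± 0.32 (adjusted p = 0.195) and Mal, a proteolipid of compact myelin, by 0.76 ± 0.24 (adjusted p = 0.208). Within the low-numbered libraries the median stress effect of the members was −0.044 in WT and −0.079 in KO mice, and within the high-numbered ones 0.15 and 0.71. No member was called in any of these 4 fits.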

How the data were processed

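The authors deposited raw read counts per gene symbol for 24 libraries. STAR, DESeq2 and the mouse build mm10 are named in the submitters' processing notes; the counter and any strand setting were not given in the sources used here. The other deposited tables were not used. The counts were tested with edgeR 4.0.16 in R 4.3.3 (quasi-likelihood F test, robust, TMM factors, minimum count 10, 16313 genes). Benjamini-Hochberg adjustment ran over all genes, with a threshold of 0.05. The group comparisons came from 1 fit of 4 group means, with 20 residual degrees of freedom. For the class comparison a separate fit added the library class to the group means. The class difference in stress effect came from a further fit, with a stress by class term added to group and class. The SE is the log2 fold change over the square root of F. CPM use TMM-scaled library sizes; levels per kilobase use exon lengths of the mm10 annotation. The table listed 3153 genes without counts. No 2 libraries of a group agreed within sampling noise (smallest mean chi-square 8.561). Replicate numbers were not used to pair the samples in the main fits. DESeq2 1.42.0, RLE factors, other filters and sets of libraries were alternatives. The members and lists were chosen with earlier results of these data known. Named members are those called, or the 3 of smallest p, with fixed members of each role. Some genes of the other lists are not reported here by name.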

Additional observations from a re-analysis of the deposited data

Results flagged for a closer look

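Of 132 groups of values checked (33 members in 4 groups), 2 held a library far from the rest, where chance alone flags about 1 group in 20. Opalin was 47.9 CPM in KO stress 3, against 30.9 CPM in the next library of that group, and Sox10 was 99.8 CPM in the same library, against 75.2 CPM in the next. KO stress 3 is also the library with the highest thalamic sum, and its part in these values was not tested.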

How the results depend on the processing

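Of 590 values of counts and medians under other settings, 10 moved, a count by over 1.5 times or a median by at least 0.2998, the SD between libraries of the members' mean log2 level. Most medians are smaller than that: of 295, 10 turned sign and 29 more changed by over 1.5 times. The median was −0.044 for WT stress and −0.079 for KO stress in the low-numbered libraries alone, and the interaction was −0.0085 without KO stress 3. The number of members called between the library classes was 4, and it was 7 with DESeq2, 0 with a replicate block (the replicate number as a factor), 24 without the 3 libraries with thalamic transcripts, and 4 to 10 over fits that left out 1 library, with 7 without KO stress 2, 10 without KO stress 3 and 7 without WT stress 5. The 3 libraries with thalamic transcripts were high for most members and all lie in the high-numbered class, so the count of 24 is no independent support. With the replicate block Hapln2 had −0.92, Gpr17 −0.21, Opalin 0.60 and Enpp6 −0.14. The block changed no other call. The labels do not say whether a replicate number marks samples that belong together. Of 33 same-numbered pairs across groups, 17 had a correlation over 0.1 in their deviations from the group means. The best match in another group had the same number for 3 of 24 libraries. Among medians, the high-numbered libraries alone gave 0.71 for KO stress, 0.50 for the interaction and 0.45 for stress averaged over the genotypes, and leaving out the 3 thalamic libraries gave 0.15 for the class difference in stress effect. Over fits without 1 library, the median was −0.019 to 0.14 for WT stress and 0.077 to 0.29 for KO stress. Of 1013 values of single members under other settings, 16 turned sign, and none of those was called. In the low-numbered libraries alone Mbp was −0.089 in WT and −0.098 in KO stress, Fa2h −0.079 in KO stress and −0.021 on average, and Gpr37 −0.031 in KO stress. In the high-numbered ones KO against WT controls was −0.061 for Nkx6-2, −0.091 for Mog and −0.072 for Cnp. Mbp in WT stress was −0.0045 with the replicate block, −0.030 without the 3 thalamic libraries and −0.072 to 0.12 over fits without 1 library; in KO stress without those 3 it was −0.0034. Classes and groups are not balanced, and 5 to 7 libraries in each group limit what can be called.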
